A study of Mus musculus with 14 samples.

Results

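Mouse parotid gland (PG) organoids in the differentiation accelerating media (DAM) were compared with PG tissue by bulk RNA-seq. The comparison took 4 of the 14 samples of the series, 2 organoid libraries and 2 tissue libraries, chosen by their labels and joined gene by gene across all 45777 genes of the deposited tables, genes with no organoid count included. All animals were wild-type female C57BL/6 mice aged 6 to 8 weeks, and the tissue columns give 6 weeks. PG organoids had been grown in Matrigel from dissociated gland cells in the growth and expansion media (GEM), which held NRG1, RSPO1, Noggin, FGF1, FGF7, B-27, N-acetyl cysteine, the TGF-beta receptor inhibitor A83-01 and the ROCK inhibitor Y-27632. Retinoic acid is named as a component in the study's text but not in its list of media components. They were then kept for 3 days in the DAM, in which Y-27632 was removed and the Notch pathway was blocked with the γ-secretase inhibitor DAPT. PG tissue was untreated gland, so digestion, culture and medium all differed between the groups at once and cannot be told apart. Submandibular (SMG) and sublingual (SLG) samples of the same kinds, 2 each, entered only where the PG difference was set against theirs.

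The parotid is a serous gland. Its acini are built of pyramidal cells packed with zymogen granules, which release amylase, proline-rich proteins and other salivary proteins when sympathetic nerves act through beta-adrenergic receptors and cAMP, while watery saliva is driven by muscarinic receptors and calcium. Striated and excretory ducts modify the salt content of this saliva, a thin layer of basal cells lines the larger ducts, and contractile myoepithelial cells wrap acini and intercalated ducts. Fat lobules, vessels, nerves and immune cells lie between the lobules, and the masseter and facial muscles border the gland.

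To show the genes on which the comparison turned, the 250 bases before the annotated start are printed for 2 secreted proteins of the tissue and 2 envelope proteins of the organoids, read 5′ to 3′ on the strand of the gene (RefSeq, GRCm38.p6). Capitals mark, on either strand, the letters TATAAA, the core of a TATA box, and the letters that AP-1 factors prefer, TGANTCA.
Pip, chr6:41847299-41847548, plus strand: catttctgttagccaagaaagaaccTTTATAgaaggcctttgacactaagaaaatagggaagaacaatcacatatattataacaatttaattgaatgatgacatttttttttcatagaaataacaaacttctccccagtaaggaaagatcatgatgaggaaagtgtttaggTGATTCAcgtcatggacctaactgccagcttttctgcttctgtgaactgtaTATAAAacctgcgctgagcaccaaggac
Prpmp5, chr6:132314744-132314993, minus strand: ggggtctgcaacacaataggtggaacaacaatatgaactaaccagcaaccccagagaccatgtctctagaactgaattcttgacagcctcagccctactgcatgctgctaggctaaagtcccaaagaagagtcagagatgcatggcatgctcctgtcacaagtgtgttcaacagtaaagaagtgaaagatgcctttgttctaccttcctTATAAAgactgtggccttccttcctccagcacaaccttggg
Sprr1a, chr3:92485882-92486131, minus strand: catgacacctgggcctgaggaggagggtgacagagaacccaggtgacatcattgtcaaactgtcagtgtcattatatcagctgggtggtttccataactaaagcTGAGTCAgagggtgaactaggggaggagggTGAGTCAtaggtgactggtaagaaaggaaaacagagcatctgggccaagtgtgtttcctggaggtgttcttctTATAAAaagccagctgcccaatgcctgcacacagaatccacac
Sprr2d, chr3:92338890-92339139, plus strand: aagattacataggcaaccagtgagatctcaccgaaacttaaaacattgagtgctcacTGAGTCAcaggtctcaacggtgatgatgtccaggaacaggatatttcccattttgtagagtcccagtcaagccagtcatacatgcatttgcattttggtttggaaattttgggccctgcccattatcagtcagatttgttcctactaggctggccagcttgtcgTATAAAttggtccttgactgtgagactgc
The TATA core began 28 bases before the start of Pip, 41 before that of Prpmp5, 29 before that of Sprr2d and 43 before that of Sprr1a, and Pip held it again at 225 bases. The AP-1 letters lay at 79 bases before Pip, 146 and 116 before Sprr1a and 193 before Sprr2d, and the printed stretch of Prpmp5 held none. Over the first listed promoter of 27025 genes, 13% held the TATA core and 6.87% the AP-1 letters in these 250 bases. Among 29 parotid secreted protein genes with a promoter in the table, 9 held the TATA core and 4 the AP-1 letters. Of 17 such genes of the cornified envelope list, 9 held the TATA core and 8 the AP-1 letters. Of 10 such basal duct genes, a list in which every tested gene was higher in organoids, 1 held the TATA core and none the AP-1 letters. The TATA core was present in 9.05% of the promoters of genes called higher in organoids, in 8.61% of those called lower and in 6.31% of those tested and not called. The AP-1 letters were present in 7.11% of the promoters of genes called higher in organoids, in 5.05% of those called lower and in 3.8% of those tested and not called. The E-box CATATG, searched for because Bhlha15 binds E-boxes, was present in 3.47% of all these promoters and in 1 of the 29 parotid ones. A match of letters describes the sequence and is not evidence that a factor binds there.

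The 4 libraries held 59772270 and 56383651 counts in organoids and 71367044 and 68876821 in tissue, and 19055 to 20350 genes had a count. The top 10 genes by count held 7.97% and 9.07% of all counts in organoids but 74.5% and 74.7% in tissue. Levels are therefore given as CPM, read counts scaled to one common library size, after TMM scaling, which multiplied the organoid totals by 2.03 and 2.02 and the tissue totals by 0.499 and 0.490, so that the bulk of genes lay at the same level. On this scale the genes of a tissue library sum to more than in the organoids, and shares of a library are given from the raw counts. CPM takes no account of gene length, so levels were compared between samples and not between genes. Values of each gene are listed for organoid libraries 1 and 3 and then for tissue libraries 1 and 2, named by the numbers of their columns. The study calls the organoid samples of this experiment biologically independent, and the labels say nothing of separate animals or cultures for either group. A p-value here covers no more than the spread seen between the 2 libraries of a group, which in tissue may be technical.

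Of 17619 genes tested with edgeR, 4673 (26.5%) were called higher in organoids and 4556 (25.9%) lower (more than a 2-fold change, with p adjusted by Benjamini-Hochberg and below 0.05). The libraries of the groups did not overlap in 9228 of these 9229 genes. With 2 libraries per group this nearly follows from the call itself, so it adds no evidence. The median log2 fold change over all genes tested was 0.06. Counts stayed close with 3 other composition scalings (4563 to 5273 higher, 4107 to 4644 lower), but with whole library totals every gene moved up by a median of 2.03 and the split became 12627 higher and 1866 lower, so that 87.1% of the calls were higher against 50.6%. Changes below are relative to the bulk of genes, and a direction that turned with whole totals is named where it is given. Another 16 named genes stayed lower with whole totals but fell short of the fold threshold, and the closing section lists them. A tested gene had no count in either organoid library in 650 cases and none in either tissue library in 833. For such a gene the fold is given as a lower bound against 3 counts over the 2 libraries, which corresponds to 0.0128 CPM in organoids and 0.0433 CPM in tissue. Such bounds cover counting error only, and for other genes the fold is the ratio of the mean CPM of the groups. The 240 called genes named in the text had edgeR adjusted p-values of at most 0.00518. The standard errors (SE) of their log2 fold changes were 0.0657 to 1.37. Their groups did not overlap, which was a condition for naming part of them.

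The secreted proteins of the serous acinus were almost absent from the organoids. Of 26 tested members of the list, 24 were called lower and 1 higher, and 13 had no count in either organoid library. Not every member is chiefly parotid. On a scale shared by the 3 glands, Prol1 was at 60.7 and 54.6 CPM in PG tissue and 206600 and 203800 CPM in SMG tissue. The list also names Spt1, or Mucl2, which is counted below among products of the other glands as well. The median log2 fold change was -14.18, or -11.62 with genes at 0 set to their bound, against 0.06 for all genes. Together the list took 0.186% and 0.176% of the organoid counts and 70.3% and 70.1% of the tissue counts.
Bpifa2, parotid secretory protein, held 118 and 300 counts in organoids and 28041322 and 26902851 in tissue (chr2:154008276-154016073). It alone made up 39.3% and 39.1% of the tissue counts, and its level was 439000-fold lower in organoids (log2 fold change -18.75 ± 0.672 SE, edgeR adjusted p = 6.17e-07). Smr3a, a secreted androgen-regulated protein, had 4 and 26 organoid counts and 9383923 and 9298792 tissue counts (chr5:87991555-88008534). Amy1, salivary amylase, which splits starch, had 38 and 64 counts against 6692624 and 6568789 (chr3:113555952-113577750; log2 fold change -18.74 ± 0.379 SE, edgeR adjusted p = 9.22e-08). These 3 genes thus filled most of the tissue libraries, and none of them passed 300 counts in an organoid library.

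Enzymes and inhibitors of saliva followed the same direction. Dnase1, which degrades DNA, had 1 and 0 counts in organoids and 1755928 and 1566547 in tissue. Car6, the secreted carbonic anhydrase, had 9 and 7 counts against 1205608 and 1092738, a 488200-fold lower level (log2 fold change -18.86 ± 0.25 SE, edgeR adjusted p = 6.45e-08). Cst10, a cystatin, and Chia1, the acidic chitinase, had no organoid count. In tissue Cst10 had 534487 and 513815 counts and Chia1 2390239 and 2382811. Their levels were at least 1185000-fold and at least 5398000-fold lower in organoids. Pip, the prolactin-induced protein, fell 8457-fold, from 23380 and 26240 CPM in tissue to 3.25 and 2.62 in organoids. Lpo, lactoperoxidase of saliva, fell 691-fold, from 2942 and 3043 to 3.79 and 4.87 CPM (log2 fold change -9.43 ± 0.167 SE, edgeR adjusted p = 7.94e-08). Agt, angiotensinogen, was at 0.0412 and 0.229 CPM in organoids and 692 and 734 CPM in tissue.
The proline-rich protein genes of chromosome 6 were at or near 0 in organoids. Prpmp5 (chr6:132311590-132314743) had no organoid count and 39712 and 42575 tissue counts, a level at least 93150-fold lower. Nearby, Prb1 (chr6:132206795-132210521) had 3 and 29 organoid counts and 50375 and 53669 in tissue, and Gm5154 (chr6:132438531-132441724), a predicted gene of the same stretch, had none in organoids and 152172 and 158056 in tissue. On chromosome 5, where Smr3a lies, BC037156 (chr5:87908779-87914171) fell 1050-fold and Prol1 (chr5:88317312-88328817) at least 4307-fold. Reads of near-identical proline-rich, amylase and Dcpp genes may have been split between copies, so single members of these families are uncertain. Smr2, at 2743 and 746 counts in tissue and none in organoids, was the tested member not called (edgeR adjusted p = 0.0618).

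The Dcpp genes, named for demilune cells and the parotid, kept measurable levels. Dcpp1 was at 7.04 and 10.9 CPM in organoids and 30060 and 26110 CPM in tissue. Dcpp2 was at 9.98 and 15.5 CPM in organoids and 5785 and 5439 CPM in tissue, and Dcpp3 at 19.1 and 23.1 CPM in organoids and 5077 and 4513 CPM in tissue. The folds were 3129, 441 and 227, all toward the tissue (log2 fold change -7.83 ± 0.162 SE, edgeR adjusted p = 9.51e-08 for Dcpp3). The member called higher in organoids was Pigr, the receptor that carries IgA across the epithelium, at 872 and 814 CPM in organoids and 273 and 265 CPM in tissue (3.13-fold, log2 fold change 1.65 ± 0.0771 SE, edgeR adjusted p = 1.98e-06). In bulk RNA a lower level from fewer cells of a type and one from less RNA per cell cannot be told apart, here and for all cell types below.

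**Figure D1:**
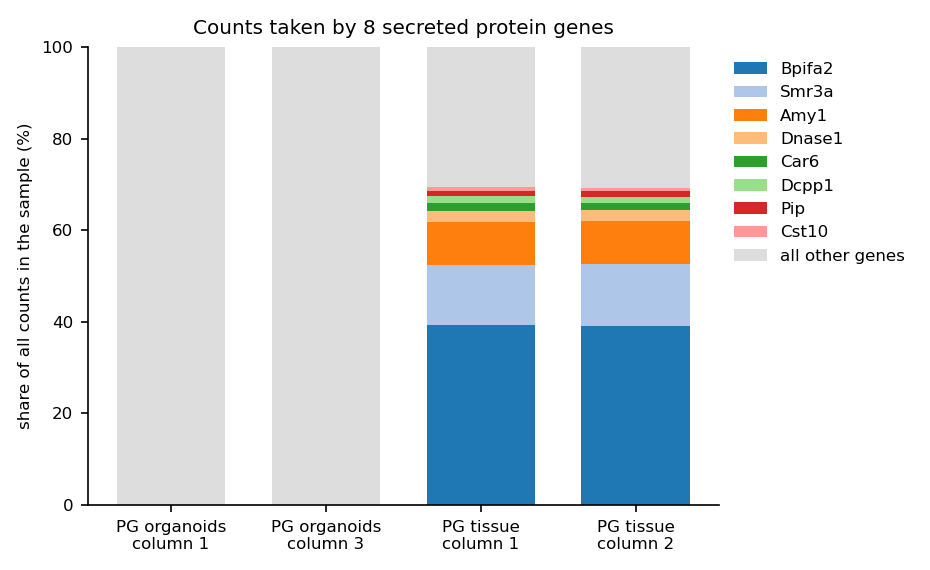
Stacked bars show the share of all counts (%) taken by 8 secreted protein genes in each library, with all other genes in gray. In the tissue libraries Bpifa2 alone takes 39.3% and 39.1%, while in the organoid libraries none of the 8 genes reaches a visible share.

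Among other genes of the tissue with large drops were several that are not salivary cargo. Ttr, the thyroxine carrier transthyretin, and Dusp26, a dual specificity phosphatase, had no count in organoids. Their tissue levels were 109.5 and 124 CPM for Ttr and 112 and 121 CPM for Dusp26, at least 9152-fold and at least 9133-fold higher. Cyp2b10, a drug-metabolizing P450, and Aass, an enzyme of lysine breakdown, were likewise at 0 in both organoid libraries. In tissue Cyp2b10 was at 78.3 and 80.7 CPM and Aass at 50.3 and 53.5 CPM. Ggh, the gamma-glutamyl hydrolase that trims folates, was at 33.5 and 37.9 CPM in organoids and 10810 and 11630 CPM in tissue (314-fold lower). The uncharacterized 2310057J18Rik stood among the most abundant tissue genes, at 34170 and 39150 CPM, and was at 7.91 and 15.3 CPM in organoids.

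Regulators of the acinar program fell with their cargo. Of 10 tested acinar transcription factors 7 were called lower and 1 higher, with a median log2 fold change of -2.02, which was 0.01 with whole totals, where 4 stayed lower and 3 were higher. Bhlha15, or Mist1, which scales up the secretory apparatus of exocrine cells, was at 4.50 and 6.47 CPM in organoids and 679 and 645 CPM in tissue (chr5:144190286-144194441; 121-fold lower, log2 fold change -6.92 ± 0.185 SE, edgeR adjusted p = 1.94e-07). Etv1, an ETS factor, was at 16.2 and 17.8 CPM in organoids and 779 and 870.0 CPM in tissue (48.4-fold). Creb3l1, an ER-tethered activator of secretory genes, was at 4.28 and 6.00 CPM in organoids and 223 and 213 CPM in tissue (42.4-fold). Organoid levels of these 3 genes were low but far above the floor. Xbp1, the transcription factor of the unfolded protein response that professional secretory cells need, kept a larger part of its level, at 149 and 153 CPM in organoids and 737 and 699 CPM in tissue (4.76-fold). Spdef and Creb3l2 fell 3.46-fold and 3.13-fold, and with whole totals their fold changes turned to 0.24 and 0.39 on the log2 scale. Sox10, a factor of the acinar and myoepithelial lineages, was at 2.59 and 5.58 CPM in organoids and 192 and 179.9 CPM in tissue (45.6-fold lower).

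Granule release genes were mixed as a list, with 8 of 23 tested members lower, 5 higher and 10 not called (median -0.35). Over all genes 25.9% were lower and 26.5% higher. With whole totals 4 members were lower and 15 higher. The 6 members named here are all among those that fell, and none of the 5 that rose is named. Myrip, which links granules to actin through Rab27 and myosin, had 0 and 3 counts in organoids and 1649 and 1382 in tissue. Rab26, a small GTPase of secretory granules, was at 0.330 and 0.176 CPM in organoids and 23.6 and 20.3 CPM in tissue (86.9-fold lower). Sytl4, granuphilin, fell 35.8-fold and Rap1gap, which switches off Rap1, 22.5-fold. Rab3d, a Rab3 protein of zymogen granules, was at 41.3 and 42.5 CPM in organoids and 180.2 and 178 CPM in tissue (4.27-fold, log2 fold change -2.09 ± 0.0657 SE, edgeR adjusted p = 3.53e-07), and Vamp2, a granule SNARE, at 11.4 and 10.7 CPM in organoids and 77.1 and 70.6 CPM in tissue (6.69-fold). In these 6 genes both organoid libraries lay below both tissue libraries. With whole totals Rab3d and Vamp2 fell short of the fold threshold (log2 fold change -0.06 and -0.71).
Of 37 endoplasmic reticulum and early secretory genes, 19 were called lower and 1 higher, or 2 higher without organoid library 3 (median -1.09), and with whole totals the balance turned to 18 higher and 5 lower. Derl3, an ER degradation factor prominent in secretory cells, was at 0.857 and 1.15 CPM in organoids and 209 and 228 CPM in tissue (218-fold lower, log2 fold change -7.77 ± 0.143 SE, edgeR adjusted p = 7.95e-08), and it stayed lower with whole totals (-5.73). Herpud1 and Sel1l of the same degradation pathway fell 8.78-fold and 6.87-fold. Mcfd2, a cargo receptor subunit, fell 8.97-fold, and Tram1 and Sec11c, which act at the translocon and in signal peptide cleavage, 7.65-fold and 8.26-fold. As raw shares the whole list took 0.727% and 0.728% of organoid counts and 0.358% and 0.350% of tissue counts, so its share of the library was larger in organoids while its level against the bulk of genes was lower.

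Fluid secretion genes were reduced to a lesser degree than cargo. The list had 13 lower and 5 higher of 26 tested (median -1.10), and 5 lower and 13 higher with whole totals. Aqp5, the apical water channel of acinar cells and the acinar marker stained in the study, was at 73.2 and 79.1 CPM in organoids and 498 and 539.6 CPM in tissue (chr15:99591028-99594829; 6.81-fold lower, log2 fold change -2.77 ± 0.0835 SE, edgeR adjusted p = 3.00e-07). Ano1, the calcium-gated chloride channel of the apical membrane, was at 39.1 and 42.1 CPM in organoids and 185 and 184 CPM in tissue (4.54-fold). Kcnn4, the calcium-gated potassium channel, was at 19.3 and 24.6 CPM in organoids and 666 and 703 CPM in tissue (31.2-fold), and Lrrc26, a subunit of the large-conductance potassium channel, fell 12.2-fold. Slc12a2, the basolateral chloride importer NKCC1, was at 203 and 219 CPM in organoids and 1106 and 1163 CPM in tissue (5.37-fold). All 5 genes thus kept clear expression in organoids. With whole totals Aqp5, Ano1 and Slc12a2 fell short of the fold threshold (log2 fold change -0.73, -0.15 and -0.39).
Receptors that start secretion were lower too, but Chrm3 hardly so with whole totals (log2 fold change -0.20). Chrm3, the main muscarinic receptor of the gland, was at 5.58 and 7.29 CPM in organoids and 31.1 and 29.3 CPM in tissue (4.69-fold), and Adrb1, the beta-adrenergic receptor that triggers granule release, at 4.92 and 4.14 CPM in organoids and 43.5 and 44.8 CPM in tissue (9.75-fold, log2 fold change -3.28 ± 0.113 SE, edgeR adjusted p = 5.24e-07). The sodium pump subunits moved apart. Atp1b1 fell 5.15-fold, from 705 and 726 CPM in tissue to 139.8 and 138 CPM in organoids, while Atp1b3 was 8.04-fold higher, at 211 and 200.4 CPM in organoids and 25.9 and 25.2 CPM in tissue (log2 fold change 3.01 ± 0.0723 SE, edgeR adjusted p = 1.48e-07).

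Every tested basal duct gene, 19 of 19, was called higher in organoids, with a median log2 fold change of 4.81. The list took 1.39% and 1.46% of organoid counts and 0.0141% and 0.0136% of tissue counts. Krt5, the basal keratin stained in the study, was at 2105 and 2135 CPM in organoids and 11.8 and 11.1 CPM in tissue (chr15:101707069-101712905; 186-fold, log2 fold change 7.54 ± 0.106 SE, edgeR adjusted p = 6.45e-08). Its partner Krt14 was at 1402 and 1795 CPM in organoids and 20.7 and 16.6 CPM in tissue (85.6-fold). Krt17 and Krt15 were 206-fold and 92.5-fold higher. Trp63, the master factor of basal and stratified epithelia, was at 268 and 255 CPM in organoids and 10.4 and 12.7 CPM in tissue (22.7-fold). Ngfr, the p75 neurotrophin receptor of basal cells, was at 159 and 158 CPM in organoids and 0.478 and 0.415 CPM in tissue (355-fold, log2 fold change 8.46 ± 0.112 SE, edgeR adjusted p = 6.45e-08). Lamb3, a chain of the laminin that anchors basal cells, rose 14.2-fold.
Luminal duct genes were higher as well, 13 of 20 against 1 lower (median 1.78), and 19 of 20 were higher with whole totals. Krt7, the luminal keratin stained in the study, was at 854 and 789 CPM in organoids and 36.4 and 48.3 CPM in tissue (19.4-fold, log2 fold change 4.28 ± 0.148 SE, edgeR adjusted p = 5.36e-07). Cldn4, a tight junction protein, was at 244 and 197 CPM in organoids and 4.41 and 5.87 CPM in tissue (42.9-fold). Krt8 and Prom1, a protein of apical protrusions, were 4.95-fold and 6.89-fold higher. E-cadherin, Cdh1, was at 356 and 303 CPM in organoids and 74.2 and 74.7 CPM in tissue (4.43-fold), and the junction plaque gene Tjp1 at 78.7 and 62.5 CPM in organoids and 28.8 and 30.1 CPM in tissue (2.40-fold). Grhl1, a grainyhead factor, was the member called lower, at 9.61 and 9.34 CPM in organoids and 62.2 and 55.7 CPM in tissue, with -0.61 on the log2 scale with whole totals.
Duct ion transport genes did not rise with these duct keratins. Of 27 tested 12 were lower and 5 higher (median -0.82), against 4 and 15 with whole totals. Slc9a3, the apical sodium/proton exchanger of salivary ducts, had no organoid count and 239 and 247 counts in tissue, at least 549.9-fold lower. Tmprss2, an apical protease, fell 6.35-fold and Fxyd3, a regulator of the sodium pump, 3.92-fold, the latter with 0.06 on the log2 scale with whole totals. In the other direction, Slc26a9, a chloride transporter, had 2523 and 1682 counts in organoids and none in tissue (at least 411-fold), Car12, a membrane carbonic anhydrase, was 3.58-fold higher and Slc12a7, a potassium-chloride cotransporter, 3.01-fold.

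The largest rises in organoids included genes of stratified epithelium that parotid tissue lacked. Of 32 tested cornified envelope and suprabasal genes 30 were called higher and none lower, with a median log2 fold change of 9.26, or 7.56 with genes at 0 set to their bound, and all 32 were higher with whole totals. Envelope precursors of the small proline-rich family, which lie together on chromosome 3, led the list. Sprr1a (chr3:92483954-92485881) was at 472 and 458 CPM in organoids and 0 and 0.148 CPM in tissue, with 0 and 5 counts in tissue (6273-fold, log2 fold change 12.62 ± 0.264 SE, edgeR adjusted p = 1.00e-07). Sprr2a1 had 50423 and 40878 counts in organoids and 0 and 2 in tissue. Sprr2d, Sprr2f and Sprr2a3 had no tissue count. Sprr2d was at 117 and 88.8 CPM in organoids, Sprr2f at 80.8 and 79.2 CPM and Sprr2a3 at 96.6 and 97.1 CPM, at least 2377-fold, 1847-fold and 2238-fold higher. Because members of this family are near-identical, their single levels are uncertain. Ivl, involucrin, the scaffold of the envelope (chr3:92570899-92573790), was at 25.9 and 22.4 CPM in organoids and 0 in tissue (at least 558-fold).
Suprabasal keratins were present too. Krt6a (chr15:101689928-101694305), a keratin of activated and fast-growing epithelium, was at 349 and 533 CPM and Krt6b at 214 and 387 CPM, both with no tissue count (at least 10190-fold and 6944-fold). Krt13, the keratin of wet stratified mucosa, was at 63.5 and 119.6 CPM with none in tissue (at least 2116-fold). For each of these 3 keratins organoid library 3 was the higher by a factor of 1.5 or more. Krt10, the keratin of dry epidermis, was among the 2 members not called, at 3.07 and 3.38 CPM in organoids and 2.39 and 2.34 CPM in tissue (edgeR adjusted p = 0.0928).
Desmosome genes rose with them. Dsg3, desmoglein of basal layers, was at 51.8 and 49.7 CPM and 0 in tissue (at least 1172-fold). Dsc3 was at 140.0 and 133 CPM in organoids and 1.07 and 1.84 CPM in tissue (94.0-fold), Pkp1, plakophilin, at 207 and 181 CPM in organoids and 4.27 and 4.06 CPM in tissue (46.6-fold), and Dsc2 at 218 and 179 CPM in organoids and 13.8 and 13.9 CPM in tissue (14.3-fold). Outside the list, Muc5b, a gel-forming mucin of seromucous glands and airways, Psca, a surface protein, and Anxa8, an annexin, had no tissue count. Muc5b was at 153 and 133 CPM in organoids (at least 3306-fold), Psca at 99.5 and 113 CPM (at least 2459-fold) and Anxa8 at 77.5 and 70.9 CPM (at least 1714-fold).

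**Figure D2:**
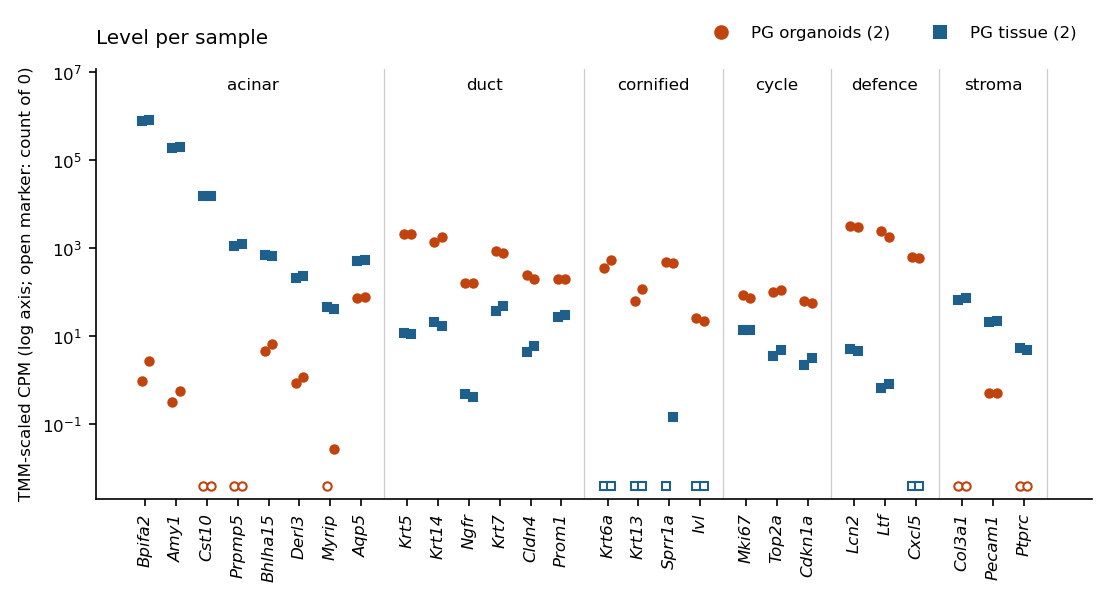
Points give the TMM-scaled CPM of each library on a log axis for genes of 6 classes, 2 organoid (circles) and 2 tissue (squares) libraries per gene, with open markers for a count of 0. The acinar and stromal genes lie lower in organoids and the duct, cornified, cycle and defence genes higher, with no overlap between the groups, and the gap is narrow for Aqp5 (73.2 and 79.1 against 498 and 539.6 CPM) beside that of Amy1.

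Myoepithelial genes moved in both directions. Of 12 tested 4 were lower, 2 higher and 6 not called (median -0.18), and with whole totals 8 were higher and none lower. Over all genes 25.9% were lower and 26.5% higher, so the first counts do not set this list apart from other genes. Acta2, smooth muscle actin and the myoepithelial marker stained in the study, was at 78.8 and 103 CPM in organoids and 61.5 and 56.3 CPM in tissue. The difference of 1.54-fold was below the fold threshold (log2 fold change 0.62 ± 0.128 SE, edgeR adjusted p = 0.00339). Myl9, a myosin light chain, was at 18.8 and 24.8 CPM in organoids and 26.7 and 23.5 CPM in tissue and its groups overlapped, while with whole totals its log2 fold change was 1.83. The more mature contractile genes Myh11, smooth muscle myosin, and Cnn1, calponin, were lower. Myh11 was at 3.82 and 8.28 CPM in organoids and 34.8 and 37.7 CPM in tissue (5.99-fold). Cnn1 was at 0.947 and 2.26 CPM in organoids and 8.54 and 10.3 CPM in tissue (5.88-fold). In both, organoid library 3 was more than 2-fold above library 1 (edgeR adjusted p = 0.00255 for Myh11 and 6.95e-04 for Cnn1). Mylk, the light chain kinase, and Tagln, transgelin, fell 3.45-fold and 2.44-fold, but their log2 fold changes turned to 0.24 and 0.74 with whole totals. Cald1, caldesmon, and Smtn, smoothelin, which non-muscle cells also use, were 2.22-fold and 5.78-fold higher. Vessel wall smooth muscle expresses the same genes, and endothelial markers, given below, were all lower in organoids. Their part in these levels was not tested.

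Cell division genes were higher, 35 of 40 tested and none lower (median 3.22), and all 40 with whole totals. Mki67, a marker of proliferating cells, was at 83.4 and 74.1 CPM in organoids and 13.4 and 13.7 CPM in tissue (5.81-fold, log2 fold change 2.54 ± 0.0916 SE, edgeR adjusted p = 6.37e-07). Top2a, which untangles replicated DNA, was at 99.0 and 108 CPM in organoids and 3.51 and 4.77 CPM in tissue (25.1-fold). The mitotic kinase Cdk1 and the spindle motor Kif11 were 14.4-fold and 17.9-fold higher, and Mcm3, of the replicative helicase, and Rrm1, which makes deoxynucleotides, 14.2-fold and 8.44-fold. D cyclins moved apart, with Ccnd2 31.2-fold and Ccnd1 4.92-fold higher and Ccnd3 2.92-fold lower, the last with 0.49 on the log2 scale with whole totals.
In the list of cell cycle inhibitors and p53 targets, which also holds the D cyclins, 14 of 20 were higher, Ccnd1 and Ccnd2 among them, and Ccnd3 was the 1 lower (median 2.05). Cdkn1a, p21, was at 61.3 and 55.1 CPM in organoids and 2.22 and 3.23 CPM in tissue (21.4-fold, log2 fold change 4.42 ± 0.164 SE, edgeR adjusted p = 7.15e-07). Cdkn2b, p15, was at 19.9 and 17.4 CPM in organoids and 0 and 0.0889 CPM in tissue, the tissue values being 0 and 3 counts. Phlda3, a p53 target, was 9.01-fold higher.

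The pathways that the culture medium acts on were described through lists of their members. Of Notch genes, the pathway that DAPT blocks, 8 of 25 were higher and 6 lower (median 0.45), and 18 higher and 4 lower with whole totals. Over all genes 26.5% were higher and 25.9% lower, so the first counts lay near the shares of all genes. The ligand Dll1 was at 32.4 and 35.3 CPM in organoids and 2.0 and 2.67 CPM in tissue (14.5-fold). The ligand Jag2 was at 101 and 109 CPM in organoids and 12.5 and 13.4 CPM in tissue (8.10-fold). The receptor Notch1 was 4.97-fold higher, and Notch4, a receptor of endothelium, 18.1-fold lower. Adam10 and Adam17, the proteases that cut the receptor before γ-secretase does, were 5.98-fold and 5.58-fold higher.
The target genes Hes1, at 17.5 and 17.7 CPM in organoids and 23.1 and 20.9 CPM in tissue, and Hey1, at 5.23 and 4.83 CPM in organoids and 2.84 and 2.58 CPM in tissue, were not called, with log2 fold changes of -0.33 and 0.89, and with whole totals Hes1 turned to 1.71. Hey1 passed the threshold with whole totals (2.92), with totals without the 10 top genes (1.08) and without organoid library 3 (1.02, edgeR adjusted p = 0.0239).
FGF and ERK feedback genes, which report activity of FGF and EGF receptors, were higher in 15 of 19 and lower in 1 (median 2.19). Dusp6, the ERK phosphatase, was at 199.5 and 196 CPM in organoids and 46.9 and 44.7 CPM in tissue (4.32-fold), Dusp4 at 30.1 and 27.7 CPM in organoids and 0.731 and 1.10 CPM in tissue (31.6-fold) and Spry1, a feedback inhibitor, 5.06-fold higher. Fgfbp1, which releases FGFs from matrix, was at 204 and 232 CPM in organoids and 2.42 and 3.70 CPM in tissue (71.2-fold, log2 fold change 6.16 ± 0.174 SE, edgeR adjusted p = 2.35e-07), and the receptor Fgfr1 4.56-fold higher.
Of the EGF family 9 of 15 were higher and 3 lower (median 2.0), or 12 and 2 with whole totals. Egf, which granular ducts make in quantity in the SMG of the mouse, had 31 and 51 counts in organoids and 3585 and 3376 in tissue (285-fold lower). Tgfa was 6.68-fold and Nrg2 12.8-fold higher, and Nrg1, whose protein the medium supplied, was at 8.35 and 12.1 CPM in organoids and 1.15 and 1.10 CPM in tissue (9.07-fold). The receptor Egfr was 4.57-fold higher and its inhibitor Errfi1 2.79-fold lower, the latter with 0.55 on the log2 scale with whole totals.

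Wnt genes were higher in 16 of 22 and lower in 3 (median 1.89), or in 19 and 0 with whole totals. Wnt7b, a ligand of epithelia, was at 20.3 and 19.0 CPM in organoids and 0 and 0.0889 CPM in tissue, with 0 and 3 counts in tissue. Lgr6, a receptor of R-spondins, was at 14.5 and 14.5 CPM in organoids and 0.759 and 0.889 CPM in tissue (17.6-fold), and Lgr4, another, 3.55-fold higher. Wls, needed to secrete Wnt ligands, was 3.13-fold higher and Sfrp1, a secreted antagonist, 13.4-fold. Rnf43, the ligase that clears Wnt receptors and is itself induced by Wnt, went the other way, at 7.56 and 7.19 CPM in organoids and 40.2 and 38.0 CPM in tissue (5.31-fold lower, log2 fold change -2.41 ± 0.0907 SE, edgeR adjusted p = 7.59e-07).
BMP and TGF-beta genes were higher in 14 of 20 and lower in 4 (median 1.84), or in 16 and 1 with whole totals. Inhba, the activin subunit, was at 56.0 and 58.0 CPM in organoids and 0.309 and 0.652 CPM in tissue (119-fold). Bmp7 was 23.2-fold, Tgfb1 7.41-fold and its latency protein Ltbp1 25.8-fold higher, and Id4, a BMP-responsive inhibitor of transcription factors, 9.49-fold. Tgfbr2 was 3.33-fold higher.
Of 14 YAP genes 10 were higher and none lower (median 1.5), among them Ajuba at 15.7-fold, F3, tissue factor, at 6.37-fold, Wwtr1, or TAZ, at 4.74-fold, Axl at 2.91-fold and Ccn1 at 2.71-fold.
Retinoid genes were higher in 10 of 13 and lower in 2 (median 2.53, or 2.01 with genes at 0 set to their bound). Stra6, the retinol receptor and a target of retinoic acid, was at 57.0 and 46.0 CPM in organoids and 0 and 0.178 CPM in tissue (579-fold). Rarb, the retinoic acid receptor that retinoic acid induces, was at 18.3 and 14.7 CPM in organoids and 1.43 and 1.13 CPM in tissue (12.9-fold, log2 fold change 3.69 ± 0.196 SE, edgeR adjusted p = 3.60e-06). Aldh1a3, which makes retinoic acid, was 43.8-fold, and the binding protein Crabp2 4.02-fold higher.

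Immediate early and heat shock genes were higher in 12 of 20 and lower in 3 (median 1.98). The AP-1 subunit Jun was at 168 and 144 CPM in organoids and 7.87 and 10.5 CPM in tissue (17.0-fold). Its relative Junb was at 136 and 130.5 CPM in organoids and 7.64 and 9.69 CPM in tissue (15.4-fold), and Fos and the growth-factor-induced Egr1 were 11.7-fold and 8.44-fold higher. Hspa1a and Hspa1b, inducible HSP70, were 19.6-fold and 30.6-fold higher, though these copies are near-identical. The nuclear receptors Nr4a1 and Nr4a2, which cAMP induces, were 10.5-fold and 17.0-fold lower, the latter at 3.71 and 3.78 CPM in organoids and 64.9 and 62.5 CPM in tissue. Klf2, which blood flow induces in endothelium, fell 20.2-fold.
NRF2 and oxidative stress genes were higher in 13 of 19 and lower in 2, or 1 without organoid library 1 or tissue library 1 and 0 with whole totals (median 1.78), with Nqo1 at 25.3-fold, Slc7a11, the cystine importer, at 12-fold, Gclm at 4.11-fold and the metallothionein Mt2 at 172 and 203 CPM in organoids and 7.03 and 8.09 CPM in tissue (24.8-fold).
Mucosal defence and acute phase genes were among the most abundant of the organoids, higher in 27 of 33 and lower in 3 (median 5.82), with 1.84% and 1.65% of organoid counts and 0.0411% of the counts of each tissue library. Lcn2, the siderophore-binding lipocalin, was at 3146 and 3021 CPM in organoids and 5.14 and 4.62 CPM in tissue (chr2:32384637-32387739; 631-fold, log2 fold change 9.30 ± 0.127 SE, edgeR adjusted p = 6.45e-08). Ltf, lactoferrin, was at 2421 and 1817 CPM in organoids and 0.674 and 0.830 CPM in tissue (2817-fold). Chil1, a chitinase-like lectin outside the list, was at 2246 and 2381 CPM in organoids and 0.534 and 0.533 CPM in tissue (4335-fold). The neutrophil attractants Cxcl5 and Ppbp, neighbors on chromosome 5, had no tissue count. In organoids Cxcl5 was at 639.5 and 594 CPM (at least 14250-fold) and Ppbp at 300.0 and 345 CPM (at least 7455-fold), and Cxcl1 was 56.3-fold higher. Saa1, serum amyloid A, was at 87.4 and 73.6 CPM against 0, a level that its near-identical copy Saa2 makes uncertain. Wfdc2, a protease inhibitor of ducts, was at 660.2 and 673 CPM in organoids and 30.6 and 25.3 CPM in tissue (23.9-fold), and Ptges, which makes prostaglandin E2, 50.5-fold higher. Other abundant genes higher in organoids were Anxa1, an anti-inflammatory annexin, at 4166 and 4483 CPM in organoids and 74.6 and 68.7 CPM in tissue, Cp, ceruloplasmin, at 72.4-fold, Gsto1 at 30.7-fold and Tmem176b at 14.2-fold. Rn18s-rs5, a ribosomal RNA sequence, was at 5820 and 9373 CPM in organoids and 1587 and 1744 CPM in tissue.

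Interferon genes had no common direction on this scale, with 12 of 35 higher and 5 lower (median 0.19), and 31 higher and 2 lower with whole totals. Ifit1, a classic induced gene, was at 25.4 and 23.8 CPM in organoids and 2.70 and 3.97 CPM in tissue (7.38-fold, log2 fold change 2.89 ± 0.172 SE, edgeR adjusted p = 6.12e-06). Isg15, a ubiquitin-like induced protein, was at 11.8 and 9.35 CPM in organoids and 2.44 and 2.76 CPM in tissue (4.07-fold). Ifi27 was at 26.8 and 24.5 CPM in organoids and 220.3 and 206 CPM in tissue (8.31-fold lower). Stat2, the signaling factor, fell 3.61-fold and the class I gene H2-K1 2.23-fold, and both turned with whole totals, to 0.18 and 0.88 on the log2 scale.

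Metabolic genes separated glycolysis from respiration. Glycolysis genes were higher in 15 of 17 and lower in 1 (median 3.15) and took 1.60% and 1.49% of organoid counts against 0.0552% and 0.0653% of tissue counts. Slc2a1, the glucose transporter GLUT1, was at 209.8 and 174 CPM in organoids and 7.17 and 5.81 CPM in tissue (29.6-fold, log2 fold change 4.88 ± 0.143 SE, edgeR adjusted p = 2.69e-07). Pkm, pyruvate kinase, was at 1526 and 1478 CPM in organoids and 102 and 132 CPM in tissue (12.8-fold). Ldha, which makes lactate, was at 999 and 999.9 CPM in organoids and 48.8 and 67.3 CPM in tissue (17.2-fold). Pfkl, Pgk1 and Tpi1 were 18.3-fold, 14.7-fold and 4.97-fold higher.
None of the 25 genes of the respiratory chain list was called higher and 3 were lower, or 1 without organoid library 1 (median -0.60), while with whole totals 22 were higher and 1 lower. The lower ones were Ndufa1 and Ndufv1, subunits of complex I, and Ppargc1a, which is no subunit of the chain. Ndufa1 was at 20.4 and 22.8 CPM in organoids and 44.0 and 46.0 CPM in tissue (2.08-fold lower, but 0.97 on the log2 scale with whole totals), and it fell short of the threshold without organoid library 1 (-0.96), with totals without the 10 top genes (-0.87), with no filter (-0.97) and in the fit of 12 libraries (-0.97). Cox4i1, of complex IV, was at 132 and 138 CPM in organoids and 216 and 228 CPM in tissue and not called (1.32 on the log2 scale with whole totals). Ndufv1 was at 35.2 and 37.8 CPM in organoids and 79.0 and 70.2 CPM in tissue (2.04-fold lower), and its log2 fold change was +1.0 with whole totals. It fell short of the threshold without organoid library 1 or tissue library 1 (-0.97 and -0.94), with totals without the 10 top genes (-0.85), with no filter (-0.94), with zero-count genes left out (-0.99) and in the fit of 12 libraries (-0.95). Ppargc1a, the coactivator that drives mitochondrial biogenesis, was at 1.86 and 2.31 CPM in organoids and 20.5 and 21.3 CPM in tissue (10-fold lower, log2 fold change -3.32 ± 0.145 SE, edgeR adjusted p = 1.42e-06), and it stayed lower with whole totals (-1.29).
Cholesterol synthesis genes were higher in 17 of 20 and lower in 1 (median 2.52). Idi1, an isomerase of the isoprenoid steps, was at 101 and 112 CPM in organoids and 2.64 and 2.73 CPM in tissue (39.7-fold, log2 fold change 5.31 ± 0.107 SE, edgeR adjusted p = 9.22e-08), and Sqle, Hmgcs1 and Fdps were 28.6-fold, 9.54-fold and 3.74-fold higher.

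**Figure D3:**
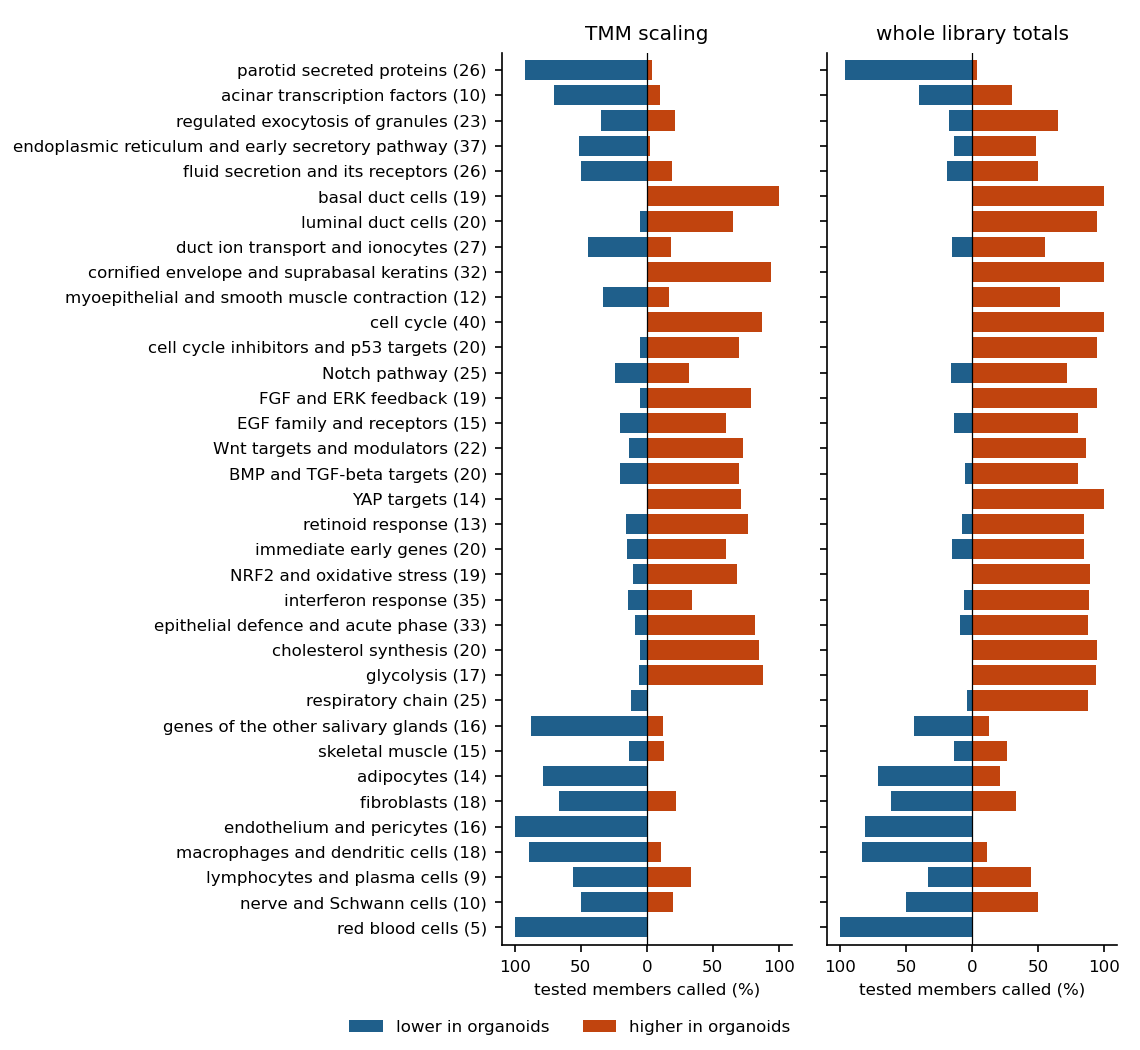
Bars give the percent of tested members of each list (number tested in brackets) called higher (right of 0) or lower (left of 0) in organoids, with TMM scaling and with whole library totals. Parotid secreted proteins, basal duct, cornified, cell cycle and red blood cell genes point the same way in both panels, while endoplasmic reticulum, duct ion transport and respiratory chain genes turn from lower to higher. Over all genes tested 26.5% were called higher and 25.9% lower with TMM scaling.

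The tissue source is labelled as epithelial cells, but cell types that surround the parenchyma were present in tissue and largely missing from organoids, but not all markers were. All 16 tested endothelial and pericyte genes were lower (median -6.74, or -6.55 with genes at 0 set to their bound), and the summed level of the list was 13.2 and 14.5 CPM in organoids and 213 and 206 CPM in tissue. Kdr, a VEGF receptor, had no organoid count and was at 17.2 and 17.3 CPM in tissue (at least 1351-fold), and Pecam1, CD31, was at 0.502 and 0.501 CPM in organoids and 21.1 and 21.4 CPM in tissue (42.4-fold lower). Plvap and Flt1 fell 203-fold and 64.1-fold. Rgs5, a pericyte gene, kept 8.57 and 9.15 CPM and so most of the organoid sum (4.28-fold lower).
Of 18 macrophage and dendritic cell genes 16 were lower and 2 higher, or 1 higher without organoid library 1 (median -10.23, or -7.96 with genes at 0 set to their bound), and 9 had no organoid count. Ptprc, the pan-leukocyte antigen CD45, was at 0 in organoids and 5.37 and 4.92 CPM in tissue (at least 403-fold), C1qa likewise at 0 against 27.3 and 22.3 CPM and C1qc at 0 against 18.4 and 20.8 CPM. The class II genes H2-Aa and H2-Eb1 fell 1893-fold and 231-fold. The invariant chain gene Cd74 was at 0.989 and 0.853 CPM in organoids and 129.7 and 116 CPM in tissue. One member that rose, Cd14, was at 158 and 144 CPM in organoids and 3.06 and 3.62 CPM in tissue (45.2-fold) and made up most of the organoid sum of 171 and 152 CPM against 408 and 360 CPM in tissue.
Fibroblast genes were lower in 12 of 18 and higher in 4 (median -5.39), or in 11 and 6 with whole totals, with summed levels of 286 and 282 CPM in organoids and 484 and 475 CPM in tissue. Col1a1 and Col3a1 had no organoid count (at least 1750-fold and 5384-fold lower), and Col1a2 and Dcn fell 1199-fold and 229.5-fold. Fn1, fibronectin, which epithelia also make, was 12-fold higher.
Red blood cell genes were lower in all 5 tested (median -12.97, or -10.01 with genes at 0 set to their bound), with all 4 globin genes at 0 in organoids. Adipocyte genes were lower in 11 of 14 and higher in none, or in 1 without either tissue library and in 3 with whole totals (median -6.74, or -5.60 with genes at 0 set to their bound), with Adipoq and Cidec at 0 in organoids and Fabp4 and Lpl 27.3-fold and 27.7-fold lower. Cfd, adipsin, was at 0 in organoids and at 10.3 and 19.2 CPM in tissue.
Of lymphocyte and plasma cell genes only 9 of 22 passed the filter, 5 lower and 3 higher, or 3 and 4 with whole totals. The immunoglobulin genes Ighm and Igha had no organoid count and were at 2.87 and 2.90 CPM and 0.506 and 0.682 CPM in tissue. The list's organoid sum of 303 and 294 CPM was nearly all Sdc1, syndecan-1, which epithelia express, at 300.0 and 291 CPM in organoids and 6.86 and 8.15 CPM in tissue (39.4-fold). In nerve and Schwann cell genes 5 of 10 were lower and 2 higher, or 5 and 5 with whole totals. Cdh19 was at 0 in organoids and 6.66 and 5.16 CPM in tissue, and Cnp and Ncam1 were 3.83-fold and 8.29-fold higher.

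Skeletal muscle genes separated the tissue libraries from each other. Of 38 muscle genes matched, 28 had no count in tissue library 1, and 23 of these had counts in tissue library 2. Their summed level was 60.2 CPM in tissue library 1 and 1165 CPM in tissue library 2, or 32.3 and 1134 CPM without Fbxo32, a ubiquitin ligase that is not restricted to muscle. Acta1, skeletal actin, was at 1.38 and 1.04 CPM in organoids and 0 and 119 CPM in tissue and Ckm, muscle creatine kinase, at 3.77 and 112 CPM in tissue with none in organoids. Of 15 tested members 2 were called higher and 2 lower. Without tissue library 1 the list held 28 lower calls, without tissue library 2 it held 9 higher and 4 lower, and without either organoid library none was lower. Neither Acta1 nor Ckm was called (edgeR adjusted p = 0.234 and 0.257), nor was Des, desmin, at 2.47 and 17.4 CPM in tissue and 0 in organoids. Eno3, muscle enolase, was at 2.59 and 2.61 CPM in organoids and 24.3 and 55.1 CPM in tissue and was called lower, a call that was lost without organoid library 1 (edgeR adjusted p = 0.0636) or library 3 (0.0757). Without tissue library 2 the fold change of Acta1 turned from -5.61 to 9.77 on the log2 scale (edgeR adjusted p = 0.000454).
The share of all counts taken by the list was 0.0030% and 0.0571%, and leaving its genes out of scaling and tests gave 4676 higher and 4555 lower calls. Among genes with at least 20 counts over both tissue libraries, 161 were at least 10-fold higher in tissue library 2 and 37 in tissue library 1.

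**Figure D4:**
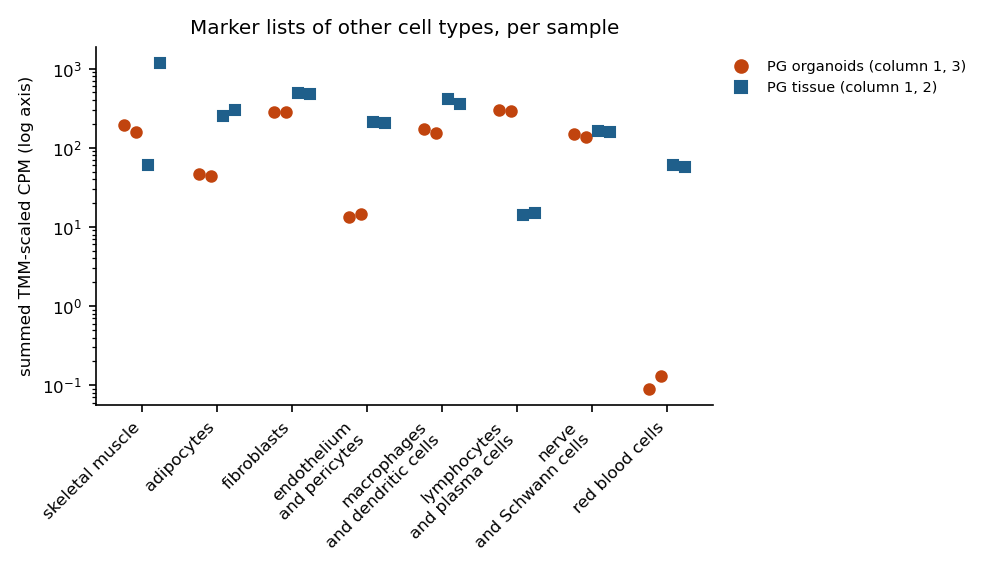
Points give the summed TMM-scaled CPM (log axis) of the marker list of each cell type in the 2 organoid (circles) and 2 tissue (squares) libraries. Muscle markers differ between the tissue libraries (60.2 and 1165 CPM), while endothelial and red blood cell sums are lower in both organoid libraries than in both tissue libraries.

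Genes by which the study tells the glands apart were split. Of 11 such genes 6 were higher, 4 lower and 1 not called in PG organoids. Muc19 was counted among the higher ones through the entry for Smgc, given below, and no level of Muc19 itself is given. The study chose most of them for differences between the organoids of the glands in these samples, so the counts are not independent evidence. It also set genes beside a tissue database, tested part of them by qRT-PCR, and used Muc19 as a marker already known for the SLG. Serpine2, a protease inhibitor, Sema3b, a semaphorin, and Itga8, an integrin, were 8.42-fold, 6.50-fold and 4.79-fold higher, while Fam20c, the kinase of secreted proteins, was at 5.70 and 5.36 CPM in organoids and 21.9 and 21.8 CPM in tissue (3.94-fold lower, but 0.05 on the log2 scale with whole totals). Calml3, a calmodulin-like protein, was at 75.9 and 83.0 CPM in organoids and 44.1 and 40.8 CPM in tissue and short of the fold threshold, and Wnt5b, a Wnt ligand, was 2.82-fold higher. Sox2, which the study names as SLG-specific, had 207 and 174 counts in organoids and none in tissue (at least 37.4-fold). On a scale shared by the 3 glands it was at 1.90 and 1.70 CPM in PG organoids. It was at 30.1 and 29.7 CPM in SMG organoids and 53.4 and 49.6 in SLG organoids. In tissue it was at 0 and 0.126 CPM in SMG and 68.4 and 68.8 in SLG.
Products typical of the other glands were called lower in PG organoids for 14 of 16 tested and higher for 2 (median -2.71), and with whole totals 7 were lower. Klk1, tissue kallikrein, was at 0.461 and 0.352 CPM in organoids and 1163 and 1371 CPM in tissue (3115-fold lower, log2 fold change -11.59 ± 0.178 SE, edgeR adjusted p = 6.45e-08), and Mucl2, or Spt1, had no organoid count and 497 and 332 in tissue. Smgc, a mucin-like product of SMG and SLG, was higher, as was Sox2, at 3.42 and 6.04 CPM in organoids and 0 in tissue (at least 109-fold).
On the scale of all 12 libraries of the 3 glands, Amy1 was at 0.349 and 0.626 CPM in PG organoids. It was at 0.151 and 0.126 in SMG organoids and 0.337 and 0.293 in SLG organoids, so the RNA of this gene hardly set PG apart from SLG organoids. The study's amylase marker was another gene, Amy2. By staining and qRT-PCR the study found it mainly in PG organoids, and its level is not given here. Other products of PG tissue were split. Bpifa2 was at 1.08 and 2.93 CPM in PG organoids and at most 0.208 in the others. BC037156 was at 16.2 and 18.6 CPM against at most 2.56. Pip and Dcpp1 went the other way, at 3.62 and 2.91 and at 7.85 and 12.1 CPM in PG organoids. SMG and SLG organoids held at least 6.85 CPM of Pip and 83.3 of Dcpp1. In tissue Amy1 was at 197900 and 203300 CPM in PG and 11.4 and 10.9 CPM in SMG. The SLG tissue libraries differed, at 11270 and 9.67 CPM, and Smr3a in them was at 16010 and 5.36 CPM, so that SLG tissue library 1 held counts of parotid products at a level that library 2 did not. Each comparison with the SLG below includes this library unless stated.

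Whether the PG difference was larger or smaller than in the other glands was tested in a model of these 12 libraries. In 1283 of 19234 genes (6.67%) the log2 fold change of organoids against tissue was higher in PG than in both SMG and SLG, and in 764 (3.97%) it was lower than in both. A group was at 0 in all its libraries in 262 and 60 of these genes. Without SLG tissue library 1 the counts were 1227 and 799.
Of the 12 tested members of the myoepithelial list 9 lay above both other glands, against 6.67% of all genes. The count was also 9 without SLG tissue library 1 and with whole totals. Acta2 on the 12-library scale was at 87.8 and 114 CPM in PG organoids and 64.7 and 58.8 in PG tissue. In SMG it was at 0.116 and 0.0722 CPM in organoids and 131 and 125 in tissue, and in SLG at 36.6 and 33.4 CPM in organoids and 236 and 269 in tissue. The PG difference exceeded that of SMG by 11.10 and that of SLG by 3.56 on the log2 scale (edgeR interaction adjusted p = 1.09e-11 and 4.07e-09). Myh11 fell in all 3 glands, but was at 4.26 and 9.20 CPM in PG organoids, 0.0622 and 0.108 in SMG organoids and 0.745 and 1.01 in SLG organoids, with differences of 7.53 and 5.28. Cnn1 had no count in either SMG organoid library and was at 1.06 and 2.51 CPM in PG and 1.29 and 0.969 CPM in SLG organoids. In tissue, Cnn1 was at 8.99 and 10.8 CPM in PG, 30.1 and 31.1 in SMG and 73.8 and 80.3 in SLG.
Of the 35 tested members of the interferon list 13 lay above both other glands, 10 without SLG tissue library 1 and 20 with whole totals. Ifit1 was at 28.3 and 26.5 CPM in PG organoids and 2.84 and 4.15 in PG tissue, an interaction of 2.26 against SMG and 1.94 against SLG on the log2 scale. SMG organoids were at 13.7 and 13.0 CPM and SMG tissue at 7.18 and 9.17, SLG organoids at 9.32 and 9.46 and SLG tissue at 5.25 and 3.99. Isg15 was above by 3.87 against SMG and 1.68 against SLG (edgeR adjusted p = 4.23e-07 and 4.74e-04).

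**Figure D5:**
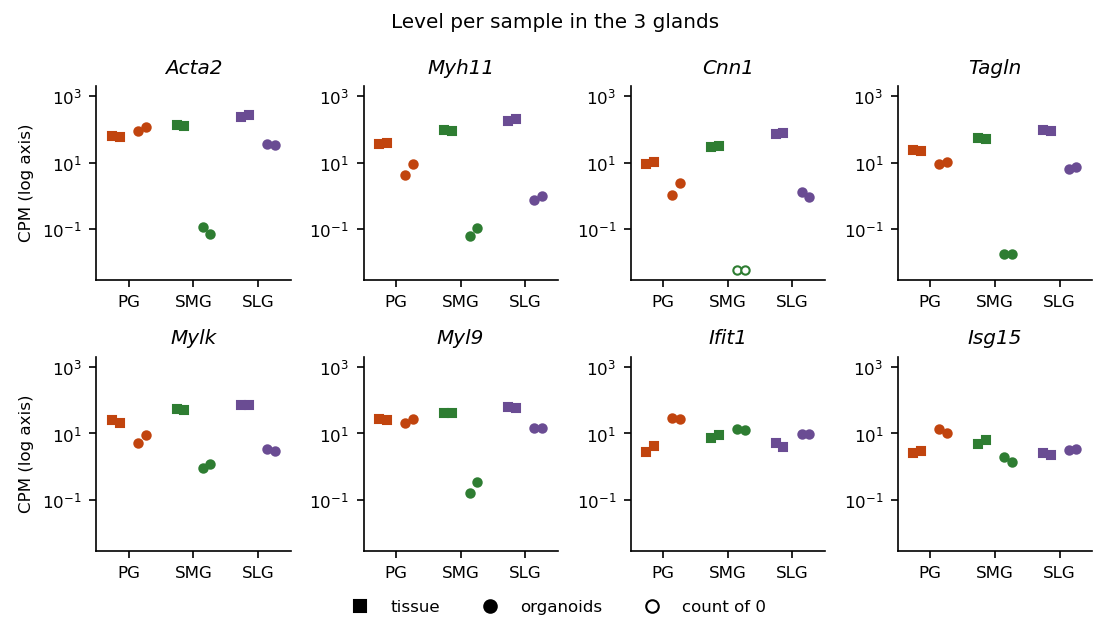
Points give the CPM on the scale of 12 libraries (log axis) of 6 contractile and 2 interferon genes in tissue (squares) and organoids (circles) of PG, SMG and SLG, 2 libraries each, with open markers for a count of 0. Acta2 lies at 87.8 and 114 CPM in PG organoids and at 0.116 and 0.0722 CPM in SMG organoids, while its tissue levels run from 58.8 to 269 CPM.

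Among single genes with the largest differences above the other glands, Tmigd1, an adhesion protein of epithelia, rose in PG organoids, from 3.70 and 3.59 to 36.5 and 38.4 CPM. In SMG it went from 37.7 and 43.3 in tissue to 7.67 and 8.79 in organoids and in SLG from 28.9 and 26.6 to 2.78 and 3.63. Lox, the collagen crosslinking enzyme, was at 77.5 and 62.7 CPM in PG organoids and 0.946 and 0.743 in PG tissue, and lower in organoids than tissue in SLG. Foxa1, a factor of ducts, was at 0 and 0.990 CPM in PG tissue and 21.9 and 23.1 in PG organoids, while SMG tissue held 47.1 and 46.6 and SLG tissue 213 and 225. With either PG organoid library left out, Foxa1 lost its call in the PG comparison (edgeR adjusted p = 0.103 and 0.124).
Dsg3, Tmprss11b, a serine protease of stratified epithelia, and Tnip3, a feedback inhibitor of NF-kB, had no PG tissue count. In PG organoids Dsg3 was at 57.7 and 55.3 CPM, Tmprss11b at 52.2 and 66.0 and Tnip3 at 66.0 and 61.8. Tnip3 was at 39.0 and 40.9 CPM in SMG organoids and 41.0 and 44.0 in SLG organoids, and in their tissue at most 0.211 CPM. Dsg3 lost its place above both glands when any single PG library or SLG tissue library 2 was left out. Sox10 fell in PG and was still above both glands, where SMG organoids had no count and SLG organoids 0.0321 and 0 CPM.
In the other direction, Kcns1, a silent subunit of potassium channels, was at 134 and 134 CPM in PG tissue and 0.275 and 0.196 in PG organoids, against 2.89 and 2.39 CPM in SMG tissue and 21.0 and 14.7 CPM in SLG tissue. Arrdc2, an arrestin-like adaptor, had 8455 and 7520 counts in PG tissue and 496 and 423 in PG organoids (59.0-fold lower), and was in organoids of the other glands at 3.74 and 2.81 CPM (SMG) and 3.73 and 3.58 CPM (SLG). Ggh and Cyp2b10 were also genes of PG tissue, with Ggh at 184 and 172 CPM in SMG and 736 and 105 CPM in SLG tissue. B4galnt3, a glycosyltransferase, was at 85.3 and 95.1 CPM in PG tissue and 2.66 and 2.46 in PG organoids, whereas in SMG it was at 0 and 0.0838 in tissue and 9.15 and 6.83 in organoids. Shisa2, a modulator of Wnt and FGF receptor maturation, was at 109 and 100.4 in PG tissue and 73.6 and 74.6 in PG organoids, short of the fold threshold (1.45 on the log2 scale with whole totals), but rose in SMG from 1.27 and 2.26 to 154 and 155.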

How the data were processed

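Bulk RNA-seq libraries of PG organoids in DAM and of PG tissue were analysed, 2 per group, with 8 libraries of SMG and SLG for the comparison between glands. Per the labels and the study's methods, libraries were made with a TruSeq stranded kit (total RNA in one source, mRNA in the other) and sequenced in pairs. HISAT2, StringTie, DESeq2 and the build GRCm38 are named in the submitters' processing notes, while whether counting used the strand and the versions of HISAT2 and StringTie were not given in the sources used here. Whole read counts per gene fill the deposited tables, made by the authors without pooling of replicates, and these counts were the input here. The other 30 columns of per-sample values, FPKM and TPM of all libraries and the read counts of 2 SMG organoid libraries in GEM, were not used. The second PG organoid column carries the number 3, which matches no label, and was assigned to its group by name. Of the gene identifiers 99.79% matched RefSeq GRCm38.p6, from which coordinates were taken.

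Counts were tested with edgeR 4.0.16 in R 4.3.3 (filterByExpr, TMM, quasi-likelihood test), and a gene was called when its change exceeded 2-fold with a p, adjusted by Benjamini-Hochberg, below 0.05. The comparison between glands used an interaction term in a model of 12 libraries and 6 groups, and a gene had to pass against both glands. The scripts were tested on simulated data. Alternatives for the PG comparison were RLE and upper quartile factors, whole library totals, totals without the 10 top genes and no filter. Others were leaving out genes with a zero count or skeletal muscle genes, DESeq2 1.42.0, a fit of 12 libraries and leaving out each PG library. For the comparison between glands they were whole library totals, RLE factors, leaving out genes with a zero count and leaving out each PG or SLG tissue library. Counts of 56383651 to 71367044 per PG library limit precision through counting error only slightly for abundant genes, and a floor of 3 counts was used for genes at 0.

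The samples, the 36 gene lists and the tests were chosen with earlier results of these data known. Genes were named by a rule: the 12 largest changes in each direction with at least 20 CPM, the 12 highest genes with no count in the other group, the 12 most abundant called genes in each direction, the 6 members of each list with the smallest adjusted p, genes that the study names or stains, and the 8 largest interactions in each direction. Acta1, Adipoq, Adrb1, Agt, Chrm3, Dcpp2, Egr1, Fos, Hes1, Hey1, Ivl, Klf2, Krt10, Myl9, Pigr, Prb1, Ptprc, Saa2, Slc12a2, Smgc, Smr2 and Trp63 lie outside it and were chosen after their values were seen. A few genes that the rule names are not reported here.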

Additional observations from a re-analysis of the deposited data

Results flagged for a closer look

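The difference between organoids and tissue was tested against the same difference in SMG and SLG, and the genes below were singled out because this test found the glands to differ. In all, 1283 genes (6.67%) lay above both other glands and 764 (3.97%) below both. Among the gene lists, the myoepithelial list had 9 of 12 tested members above and the interferon list 13 of 35. The interferon count was 10 without SLG tissue library 1 and 20 with whole totals. Other lists had members above as well, among them cell cycle (7 of 40), Wnt (6 of 22), BMP and TGF-beta (6 of 20) and endoplasmic reticulum (6 of 37).

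Tmigd1 lay above by 5.66 on the log2 scale against SMG and 6.47 against SLG, Foxa1 by 5.44 and 6.96, and Lox by 5.36 and 8.79. Ifit1bl1, an interferon-induced gene with 0 and 3 counts in PG tissue, lay above by 6.22 and 5.44, and it lost this call without SLG tissue library 1 (edgeR adjusted p against SLG = 0.0716), SLG tissue library 2 (0.136) or PG tissue library 1 (0.0663). Below both glands were Ggh (-5.85 against SMG and -4.86 against SLG), B4galnt3 (-12.78 and -4.12), Shisa2 (-6.98 and -4.05), Kcns1 (-3.96 and -4.43), Slc25a34 (-3.85 and -6.84) and Arrdc2 (-3.83 and -4.02). Slc25a34, a mitochondrial carrier, was at 0.138 and 0.205 CPM in PG organoids and 26.3 and 31.0 CPM in PG tissue.

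Amy1 was not below both glands with all libraries (-12.34 against SMG and -4.53 against SLG), and it was without SLG tissue library 1 (-12.34 and -13.72, edgeR adjusted p = 7.77e-08 and 2.51e-09). That library held 11270 CPM of Amy1 and SLG tissue library 2 held 9.67. The cause was not tested.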

How the results depend on the processing

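With whole library totals 12627 genes were called higher and 1866 lower in organoids, and 347 lay below both other glands. These totals count the few secreted protein genes of tissue in full, and the log2 fold changes of 16 named genes then changed sign, to 0.49 for Ccnd3, 1.32 for Cox4i1, 0.39 for Creb3l2, 0.55 for Errfi1, 0.05 for Fam20c, 0.06 for Fxyd3, 0.88 for H2-K1, 1.71 for Hes1, 1.83 for Myl9, 0.24 for Mylk, 0.97 for Ndufa1, 1.0 for Ndufv1, 1.45 for Shisa2, 0.24 for Spdef, 0.18 for Stat2 and 0.74 for Tagln. Another 16 named genes stayed lower with whole totals but fell short of the fold threshold. Of these, Ano1 was at -0.15, Aqp5 -0.73, Atp1b1 -0.33, Chrm3 -0.20, Cnn1 -0.52, Grhl1 -0.61, Myh11 -0.55 and Rab3d -0.06. The others were Rgs5 at -0.07, Rnf43 -0.37, Sel1l -0.75, Slc12a2 -0.39, Tmprss2 -0.63, Tram1 -0.90, Vamp2 -0.71 and Xbp1 -0.22. With 1 library left out Acta1 ranged from -6.61 (without tissue library 1) to 9.77 (without tissue library 2). Under the other alternatives the counts of calls over all genes stayed within 1.5 times the values reported. Of the 72 counts of list members, higher and lower, 32 moved further than that with whole totals, 16 with zero-count genes left out, 6 in the fit of 12 libraries and 0 to 5 under each other setting. With genes that had a zero count left out, 3765 were higher and 3773 lower, and with DESeq2 4195 and 4500. In the PG comparison each PG library was left out in turn. For the comparison between glands only PG libraries and SLG tissue libraries were left out in turn. No SMG library and no SLG organoid library was left out, so dependence on a single one of those was not tested. The settings without an SLG tissue library were chosen after seeing the data. In the fit of 12 libraries Chia1, Cst10 and Gm5154, at 0 in organoids, missed the threshold (edgeR adjusted p = 0.111, 0.0665 and 0.0516). No paired analysis was possible because the organoid libraries are numbered 1 and 3 and the tissue libraries 1 and 2, so that the groups share 1 number. With 2 libraries per group the spread between animals cannot be told apart from that between preparations.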
